A study of Mus musculus with 16 samples.

Results

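The 8 genes Tbx2, Tbx3, Tbx4, Tbx5, Tbx15, Tbx18, Tbx20 and Pitx1, which regulate position in limb, heart and skin, were followed through 12 histone mark peak lists from mouse skin. They were chosen by name, and they are 8 of 22367 protein-coding genes that the annotation holds on assembled chromosomes. The lists come from ChIP-seq of H3K4me3, H3K27me3 and H3K9me3, which are trimethylated forms of lysines 4, 27 and 9 of histone H3, in 4 sorted populations. EA-HFSCs and LC-HFSCs are the hair follicle stem cells of the bulge, sorted as CD34+/α6-integrin+ cells at early anagen (PD22 to PD25, postnatal days) and late catagen (PD38 to PD44). nEA-HFSCs and nLC-HFSCs are the CD34-/α6-integrin+ cells of the same ages, which the study describes as mostly epidermis and lower outer root sheath. All samples are labelled as males of wild-type CD1 x FVB background without any treatment, although the study's methods mention mice of either sex for most of its work, and cells of several mice were pooled for each chromatin preparation, which MNase cut into mononucleosomes. One antibody each was used for H3K4me3 (ActiveMotif) and H3K27me3 (Millipore), whereas the H3K9me3 label names antibodies of 2 makers (Millipore and Abcam). Independent experiments were pooled before peaks were called, so that there was 1 list per population and mark, no difference had a replicate check and no test was possible.

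T-box proteins are transcription factors that bind DNA through the T-box domain, and many of them are switched on in restricted fields of the embryo. Pitx1 is a homeodomain factor that acts upstream of Tbx4 in the hindlimb. H3K4me3 usually marks the starts of active or poised genes, H3K27me3 is the Polycomb mark that often lies in wide domains over silent developmental regulators, and H3K9me3 is best known from heterochromatin. A start that carries H3K4me3 and H3K27me3 together is commonly called bivalent. Tbx15 and Tbx18 are known from dermal cells of the skin, and none of the 8 genes is a standard marker of the bulge.

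The annotation (GENCODE vM1, on the same assembly as mm9) places Tbx2 at chr11:85646053-85655450 and Tbx4 at chr11:85699924-85729599, both on the plus strand. Tbx3 lies at chr5:120120678-120134733 and Tbx5 at chr5:120284672-120335227, again on the plus strand. Tbx15 spans chr3:99044304-99158182 on the plus strand. On the minus strand are Tbx18 at chr9:87597635-87626095, Tbx20 at chr9:24527648-24578746 and Pitx1 at chr13:55926415-55937553. Tbx3 has 6 annotated transcript starts, Tbx4 and Tbx15 have 3 each, Pitx1 has 2, and the other genes have 1. A gene was counted as carrying a mark when a peak reached within 3000 bp of any of these starts, here called the TSS windows.

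Start sequences of 4 genes are shown because they stand for the different outcomes described below. Each run gives the 250 bases before a transcript start in mm9, 5′ to 3′ on the plus strand, with CpG dinucleotides in capitals. They are the first start of Tbx3 (chr5:120120428-120120677), which kept H3K4me3 in every population, and the first start of Tbx4 (chr11:85699674-85699923), which had no H3K4me3 peak in any. Tbx5 (chr5:120284422-120284671) had its H3K4me3 peak only further upstream. Tbx15 is shown at its first start (chr3:99044054-99044303), without H3K4me3, and at its second start (chr3:99057433-99057682), which carried the H3K4me3 peaks of this gene.
Tbx3 start 1: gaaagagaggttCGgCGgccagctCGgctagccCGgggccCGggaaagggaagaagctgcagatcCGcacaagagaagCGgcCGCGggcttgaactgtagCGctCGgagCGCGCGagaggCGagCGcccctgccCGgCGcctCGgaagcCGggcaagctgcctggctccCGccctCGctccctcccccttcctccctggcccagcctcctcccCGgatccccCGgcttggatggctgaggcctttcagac
Tbx4 start 1: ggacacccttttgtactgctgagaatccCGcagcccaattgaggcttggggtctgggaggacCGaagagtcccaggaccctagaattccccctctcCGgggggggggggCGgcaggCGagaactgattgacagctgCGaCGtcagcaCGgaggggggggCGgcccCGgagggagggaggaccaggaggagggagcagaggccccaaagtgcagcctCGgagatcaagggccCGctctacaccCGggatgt
Tbx5 start 1: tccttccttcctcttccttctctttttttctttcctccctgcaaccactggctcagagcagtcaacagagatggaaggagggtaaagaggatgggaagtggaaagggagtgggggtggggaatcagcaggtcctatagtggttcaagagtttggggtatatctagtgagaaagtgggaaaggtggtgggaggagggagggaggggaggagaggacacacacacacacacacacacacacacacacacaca
Tbx15 start 1: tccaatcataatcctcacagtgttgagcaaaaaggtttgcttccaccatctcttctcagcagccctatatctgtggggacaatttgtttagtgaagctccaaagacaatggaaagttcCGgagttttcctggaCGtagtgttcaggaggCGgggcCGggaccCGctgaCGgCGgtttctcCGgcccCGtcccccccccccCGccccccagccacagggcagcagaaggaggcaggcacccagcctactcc
Tbx15 start 2: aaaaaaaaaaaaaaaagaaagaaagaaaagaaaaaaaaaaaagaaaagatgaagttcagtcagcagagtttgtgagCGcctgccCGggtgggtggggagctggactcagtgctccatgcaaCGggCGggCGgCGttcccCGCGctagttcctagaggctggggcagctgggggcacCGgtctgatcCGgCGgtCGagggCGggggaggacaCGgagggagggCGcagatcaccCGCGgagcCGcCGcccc

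These stretches hold 24 CpGs for Tbx3, 13 for Tbx4, 0 for Tbx5, 10 for the first start of Tbx15 and 19 for the second. Over the 1000 bp around the gene start, the observed to expected CpG ratio was 0.823 at Tbx3, 0.756 at Tbx2, 0.753 at Tbx18, 0.634 at Pitx1, 0.628 at Tbx20, 0.511 at Tbx4, 0.363 at Tbx15 and 0.121 at Tbx5. The median was 0.631 for the 8 genes and 0.549 for all genes. The H3K4me3 peak upstream of Tbx5 in EA-HFSCs covered DNA with a ratio of 0.622, and that at the second Tbx15 start one of 0.704, so both peaks lay on DNA richer in CpG than the first annotated start. The T-box binding motif AGGTGTGA was found on neither strand in the 250 bases before the gene start of any of the 8 genes, and 0.943% of all genes have it there. The bicoid-type homeodomain motif TAATCC, searched on both strands, was found before the first start of Tbx15 alone, against 6.46% of all genes.

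An H3K27me3 peak reached the TSS windows of all 8 genes in EA-HFSCs, nEA-HFSCs and nLC-HFSCs, and of 7 in LC-HFSCs, where Tbx15 had no peak. Of all protein-coding genes, 14.0% carried H3K27me3 at a TSS in EA-HFSCs, 16.8% in nEA-HFSCs, 12.9% in nLC-HFSCs and 3.73% in LC-HFSCs. The 7 genes other than Tbx15 were thus marked in all 4 populations, as were 3.56% of all genes. In pools of sorted cells, fewer marked cells and less mark per cell cannot be told apart.

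**Figure D1:**
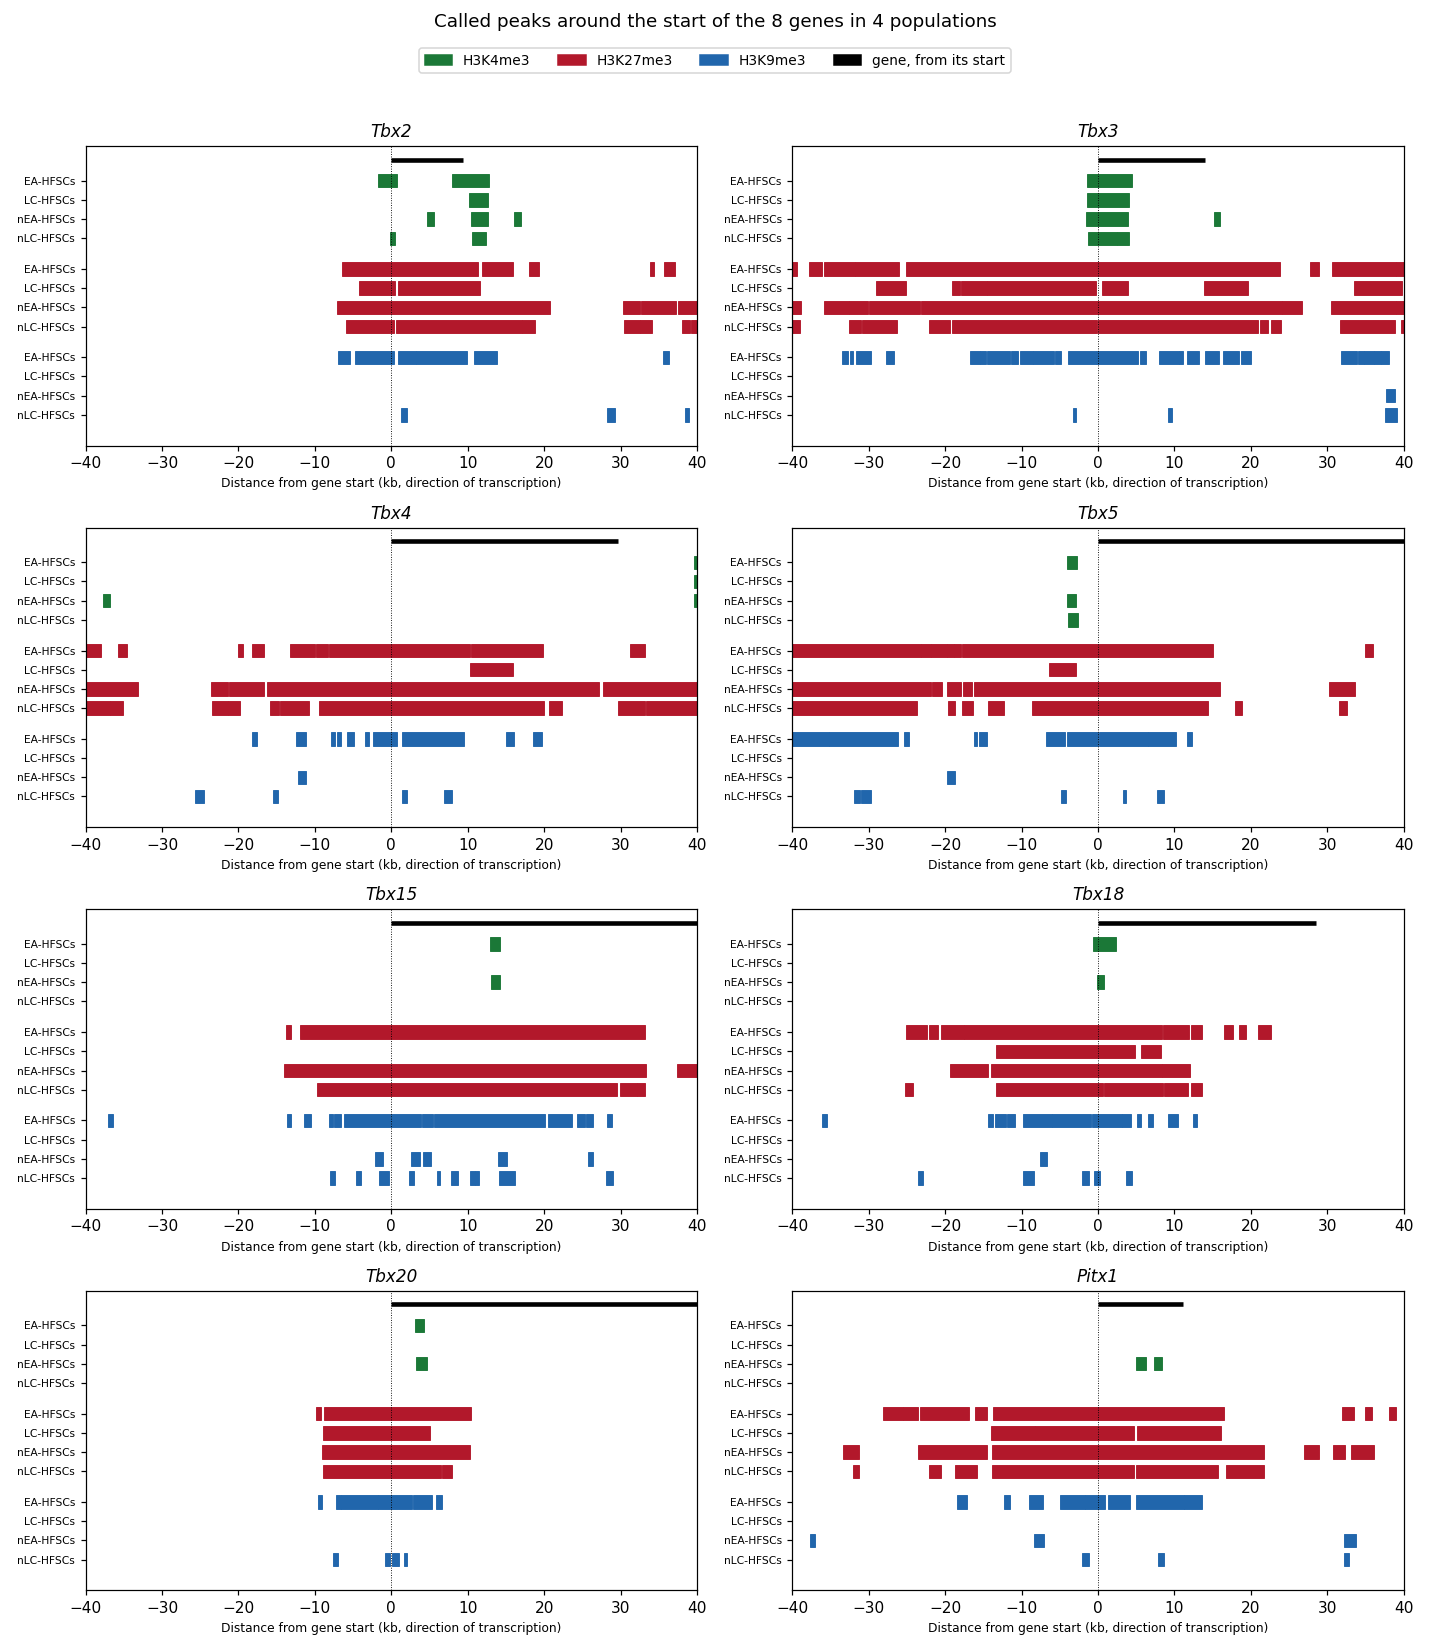
Called peaks around the start of each of the 8 genes. The x axis gives the distance from the gene start in kb in the direction of transcription, each row is 1 list (4 populations for each of 3 marks), coloured bars are peaks and the black bar is the gene. H3K27me3 covers the start of all 8 genes in EA-HFSCs, is shorter or missing in LC-HFSCs, and H3K9me3 has no bar at any LC-HFSC start.

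The peaks were wide. The median of the widest H3K27me3 peak at a TSS was 28066 bp over the 8 genes in EA-HFSCs, 33950 bp in nEA-HFSCs and 19805 bp in nLC-HFSCs, and 13010 bp over the 7 marked genes in LC-HFSCs. The medians over all genes marked in the same list were 3631, 4850.5, 2937.5 and 3775 bp, in the same order with LC-HFSCs last. A peak of at least 10000 bp was present at all 8 genes in each population other than LC-HFSCs, and at 5 in LC-HFSCs. Only 428 genes reached this width in EA-HFSCs and 74 in LC-HFSCs.

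Tbx3, a transcriptional repressor needed in limb, heart and mammary gland, had the widest domain in EA-HFSCs. Its peak measured 48887 bp there, 14231 bp in LC-HFSCs, 47256 bp in nEA-HFSCs and 20943 bp in nLC-HFSCs. The EA-HFSC peak was the 8th widest of 25534 in its list, but its score, explained below, was the lowest of the 8 genes, 177.86. In nEA-HFSCs Tbx3 again had the lowest score of the 8, 145.1. Tbx2, its close relative with a similar repressor role, had 17854 bp in EA-HFSCs, 10708 bp in LC-HFSCs, 27895 bp in nEA-HFSCs and 16493 bp in nLC-HFSCs. Tbx2 had the narrowest EA-HFSC domain of the 8 genes, and its whole body of 9398 bp was nevertheless inside it.

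Tbx4 and Pitx1 specify the hindlimb, and Tbx5 the forelimb and parts of the heart. Tbx4 had 18454 bp in EA-HFSCs, 5533 bp in LC-HFSCs, 43519 bp in nEA-HFSCs and 29361 bp in nLC-HFSCs. Tbx5 had 32889 bp in EA-HFSCs, 3568 bp in LC-HFSCs, 32212 bp in nEA-HFSCs and 23030 bp in nLC-HFSCs. Pitx1 had 30234 bp in EA-HFSCs, 13010 bp in LC-HFSCs, 35688 bp in nEA-HFSCs and 18667 bp in nLC-HFSCs. Among these limb genes Tbx5 had the narrowest LC-HFSC peak, and Pitx1 alone kept more than 10000 bp.

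Tbx15, which patterns pigment and dermis along the back and flank, showed the largest difference between the HFSC lists. Its domain was 45171 bp wide in EA-HFSCs, the 15th widest of the list, 47398 bp in nEA-HFSCs and 39209 bp in nLC-HFSCs. The LC-HFSC list had no H3K27me3 peak in its TSS windows or its body of 113879 bp. Tbx18, a factor of dermal condensate, epicardium and sinus node, kept a wide domain in all 4 populations. Its peak was 25898 bp wide in EA-HFSCs, 18153 bp in LC-HFSCs, 22271 bp in nEA-HFSCs and 13989 bp in nLC-HFSCs. At 18153 bp it was the 5th widest of the 1909 LC-HFSC peaks, although its score of 44.01 was close to the lowest of that list, 40.01, and a minimum of 50 removed it. The score is the authors' value of 10 times the negative log10 of the MACS p-value, and it ranks peaks within a list but does not compare heights between lists.

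Tbx20, a heart factor, had the most similar widths across populations. It had 19288 bp in EA-HFSCs, 14017 bp in LC-HFSCs, 19350 bp in nEA-HFSCs and 15457 bp in nLC-HFSCs. With 321.5 it had the highest LC-HFSC score of the 8 genes, ahead of Tbx4 with 193.13 and Tbx2 with 168.87.

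**Figure D2:**
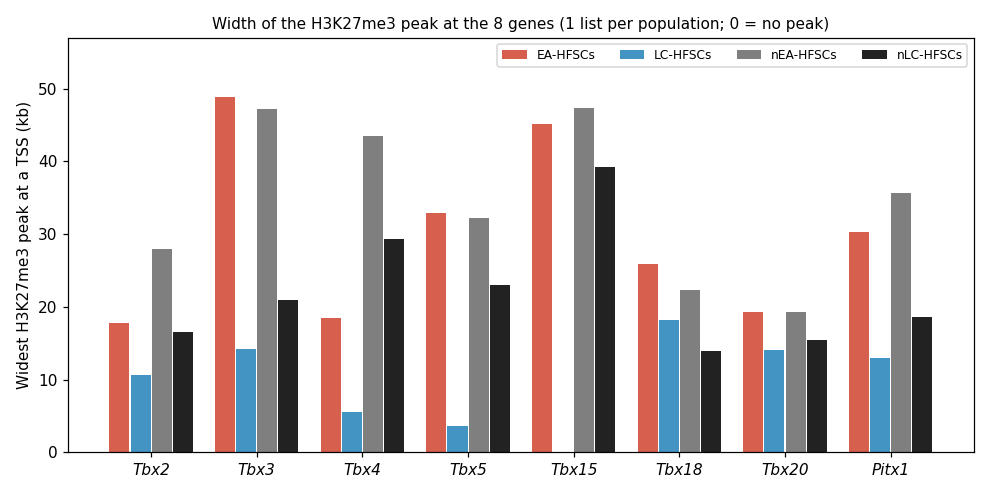
Width in kb of the widest H3K27me3 peak that reaches the TSS windows of each of the 8 genes. Bars are the 4 populations, with 1 list each and therefore no error bars, and Tbx15 has no LC-HFSC bar because it had no peak. The LC-HFSC bar is the shortest at every gene other than Tbx18, where that of nLC-HFSCs (13989 bp) is shorter still.

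In LC-HFSCs the widest peak was narrower than in EA-HFSCs at all 7 genes that kept one, with a median of 43.0% of the EA-HFSC width and a range from 10.8% at Tbx5 to 72.7% at Tbx20. Over the 819 genes marked in both lists the median was 55.8%, and over the 260 of them whose EA-HFSC peak reached 10000 bp it was 40.8%. These values depend on how a domain is split into peaks, since the LC-HFSC domains of Tbx2, Tbx3 and Pitx1 each consist of 2 peaks at the TSS windows. With all peaks at a TSS of a gene summed, an alternative chosen after the data were seen, the LC-HFSC width was 86.4% of the EA-HFSC width at Tbx2, 79.2% at Pitx1, 72.7% at Tbx20, 70.1% at Tbx18, 36.2% at Tbx3, 19.8% at Tbx4 and 10.8% at Tbx5. The median was then 70.1% for the 7 genes, 52.1% for the 819 and 46.3% for the 260. Tbx4, Tbx5 and Tbx3 stayed low by both measures. In nLC-HFSCs the widest peak had a median of 65.1% of the nEA-HFSC width over the 8 genes and 52.5% over all 2678 genes marked in both, and the summed peaks had 82.1% and 60.7%. Of all genes marked in EA-HFSCs, 26.1% were also marked in LC-HFSCs, and of those with at least 10000 bp in EA-HFSCs 60.7% were, against 7 of the 8. The LC-HFSC list as a whole held 1909 H3K27me3 peaks and the EA-HFSC list 25534, and the read numbers behind the lists were not tested here. By the study's account, the LC-HFSC libraries were sequenced more deeply than those of EA-HFSCs.

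What stayed in LC-HFSCs left some of the gene starts uncovered. The first base of the gene lay inside H3K27me3 at all 8 genes in EA-HFSCs and nEA-HFSCs, at 7 in nLC-HFSCs and at 4 in LC-HFSCs, namely Tbx2, Tbx18, Tbx20 and Pitx1. Covered starts were not counted over all genes, so whether this loss is particular to the 8 genes is not known. At Tbx5 the LC-HFSC peak ran from -6394 to -2827 bp relative to the gene start and thus only touched the TSS window. At Tbx4 it began 10340 bp into the gene, at the third transcript start, and left the first 2 starts uncovered. At Tbx3 H3K27me3 lay on both sides of the gene start in LC-HFSCs and spared 823 bp, from -331 to 491 bp relative to that start. The LC-HFSC peaks on either side had scores of 48.33 and 54.71, near the lowest of the list, 40.01. In nLC-HFSCs the corresponding gap at Tbx3 was 211 bp long. Smaller gaps within 1000 bp of the gene start were seen at Tbx2 in LC-HFSCs (414 bp) and nLC-HFSCs (153 bp) and at Tbx18 in nLC-HFSCs (149 bp). None were seen there in EA-HFSCs or nEA-HFSCs. Later starts also lay in gaps, such as the third of Tbx4 in EA-HFSCs and the second of Pitx1 in LC-HFSCs and nLC-HFSCs. Over the gene bodies, H3K27me3 covered 43.0% of the summed length of the 8 genes in EA-HFSCs, 13.5% in LC-HFSCs, 46.8% in nEA-HFSCs and 41.0% in nLC-HFSCs. The bodies of Tbx2 (95.6%) and Pitx1 (96.9%) remained nearly covered in LC-HFSCs, whereas Tbx5 and Tbx15 had no H3K27me3 there.

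**Figure D3:**
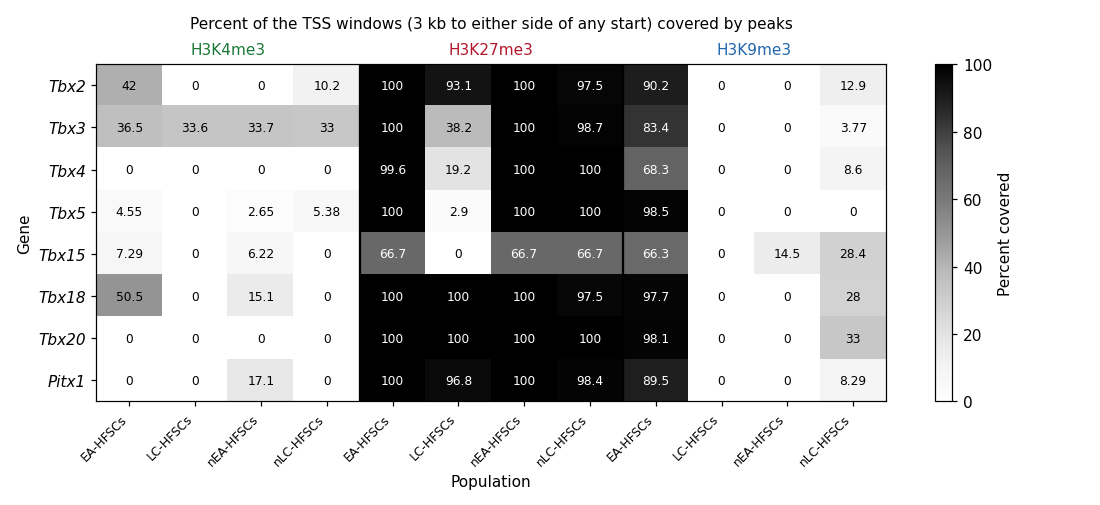
Percent of the TSS windows of each gene (rows) covered by peaks in each of the 12 lists (columns, grouped by mark), from 0 in white to 100 in black. H3K27me3 covers at least 97.5% in every population other than LC-HFSCs at the 7 genes other than Tbx15, and the LC-HFSC values run from 0 at Tbx15 to 100 at Tbx18 and Tbx20.

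H3K4me3 was present at a TSS of 5 of the 8 genes in EA-HFSCs (Tbx2, Tbx3, Tbx5, Tbx15 and Tbx18), where 62.4% of all genes had it. In nEA-HFSCs it was again found at 5 (Tbx3, Tbx5, Tbx15, Tbx18 and Pitx1), against 61.7% of all genes. In nLC-HFSCs it was found at 3 (Tbx2, Tbx3 and Tbx5), against 58.8%, and in LC-HFSCs at Tbx3 alone, against 55.9%. The 8 genes were thus near the background in EA-HFSCs and nEA-HFSCs. Of all genes with H3K4me3 in EA-HFSCs 89.3% had it in LC-HFSCs too, and of those with H3K4me3 and H3K27me3 together in EA-HFSCs 58.5% had it, compared with 1 of the 5 here.

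Tbx3 carried an H3K4me3 peak of 5873 bp in EA-HFSCs, 5401 bp in LC-HFSCs, 5416 bp in nEA-HFSCs and 3828 bp in nLC-HFSCs. Its scores, 2019.36, 383.46, 1856.72 and 1169.77 in that order, were the highest H3K4me3 scores among the 8 genes in each list. In every population the peak also covered the start of Gm2301, a noncoding transcript on the opposite strand, and these lists cannot assign the mark to either gene. The sequence printed above for Tbx3 lies inside this peak.

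Tbx2 had a peak of 2521 bp over its start in EA-HFSCs (score 83.37), which also covered the start of the noncoding 2610027K06Rik on the other strand, and one of 615 bp in nLC-HFSCs (54.04). In nEA-HFSCs it had 924 bp in its body alone (60.5). These scores are near the lowest of the H3K4me3 lists, 50.00. A stronger EA-HFSC peak of 4770 bp (547.52) ran from 7954 to 12723 bp past the start, across the end of the gene, and no annotated transcript starts inside it. Only in EA-HFSCs did that peak reach the gene, and the other 3 populations had peaks just beyond its end. Tbx18 had 3031 bp in EA-HFSCs (349.95) and 909 bp in nEA-HFSCs (218.83), both over its start, and none at late catagen in either sort.

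The remaining H3K4me3 peaks lay away from the first annotated start. Those of Tbx15 covered its second start, 13379 bp downstream, with 1312 bp in EA-HFSCs (156.42) and 1120 bp in nEA-HFSCs (119.51). Those of Tbx5 lay upstream, from -4041 to -2728 bp relative to the start in EA-HFSCs (236.91), with scores of 305.7 in nEA-HFSCs and 163.12 in nLC-HFSCs, and no transcript is annotated as starting there. Pitx1 had H3K4me3 in nEA-HFSCs alone, with a peak of 1349 bp (154.44) that began 186 bp past its second start and one of 1120 bp (54.22) further downstream. Tbx20 had none in its TSS window, but 1140 bp in EA-HFSCs (128.17) and 1373 bp in nEA-HFSCs (124.7) lay just outside it, in the body. Tbx4 had no H3K4me3 peak over its TSS windows or body in any list.

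H3K4me3 and H3K27me3 thus occurred together at 5 genes in EA-HFSCs, 1 in LC-HFSCs, 5 in nEA-HFSCs and 3 in nLC-HFSCs, where 8.89%, 1.30%, 10.8% and 6.60% of all genes carried both. None of the 8 carried H3K4me3 without H3K27me3 in any population. The H3K4me3 peaks also lay inside H3K27me3 by position. Of their base pairs 93.4% were covered by H3K27me3 in EA-HFSCs, 83.8% in LC-HFSCs, 100% in nEA-HFSCs and 96.8% in nLC-HFSCs. Over the whole H3K4me3 lists these shares were 6.89%, 1.04%, 8.35% and 4.30%. The 8 genes lay under wide H3K27me3 domains, so these shares are not independent of the counts above. In LC-HFSCs the single H3K4me3 peak was that of Tbx3, which filled the 823 bp gap and overlapped H3K27me3 on both sides.

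H3K9me3 was found at a TSS of all 8 genes in EA-HFSCs, where 47.9% of all genes had it, and at none in LC-HFSCs, where 0.505% had it. In nEA-HFSCs Tbx15 alone carried it, against 4.14% of all genes, and in nLC-HFSCs 7 genes did, all but Tbx5, against 14.1%. The EA-HFSC share of all genes differed with the CpG ratio around the gene start. It was 12.8% at ratios below 0.25, 67.3% from 0.5 to 0.75 and 76.8% from 0.75 to 1. The median ratio of the 8 genes was 0.631. Of the 4 basal keratinocyte markers used below, 3 also had H3K9me3 at a TSS in EA-HFSCs. The widest EA-HFSC peak ran from 4838 bp at Tbx20 to 14600 bp at Tbx15, with a median of 5854.5 bp against 1300 bp over all marked genes. The Tbx15 peak was the 7th widest of 42277. In nLC-HFSCs the peaks were narrow, with a median of 893 bp and a widest of 2107 bp, again at Tbx15, compared with 616 bp over all marked genes. In EA-HFSCs 45 H3K9me3 peaks touched the TSS windows or bodies, 43 of them touched H3K27me3, and 99.3% of their base pairs lay inside it. The share was 100% for the 5 peaks of nEA-HFSCs, all at Tbx15, and 96.5% for the 24 of nLC-HFSCs. Over the whole EA-HFSC list 36.4% of the H3K9me3 base pairs lay in H3K27me3, in nEA-HFSCs 3.43% did, and in nLC-HFSCs 12.8% did. The counts of H3K9me3 and of all 3 marks in EA-HFSCs rest on this 1 list, and whether its antibodies also bound H3K27me3 was not tested. The LC-HFSC list held 1414 H3K9me3 peaks and the EA-HFSC list 42277, and the part of the IgG background in this was not tested.

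Taken by gene, Tbx2, Tbx3, Tbx5, Tbx15 and Tbx18 carried all 3 marks in EA-HFSCs, as did 7.24% of all genes, and Tbx4, Tbx20 and Pitx1 carried H3K27me3 and H3K9me3. In LC-HFSCs 6 genes had H3K27me3 alone, Tbx3 had H3K4me3 with H3K27me3, and Tbx15 had no mark. In nEA-HFSCs Tbx2, Tbx4 and Tbx20 had H3K27me3 alone, Tbx3, Tbx5, Tbx18 and Pitx1 had it with H3K4me3, and Tbx15 had all 3. In nLC-HFSCs Tbx4, Tbx15, Tbx18, Tbx20 and Pitx1 had H3K27me3 with H3K9me3, Tbx5 had H3K4me3 with H3K27me3, and Tbx2 and Tbx3 had all 3. None of the 8 genes had the same combination in all 4 populations. H3K9me3 is enough to give this result, since all 8 carried it in EA-HFSCs while none did at late catagen in the HFSCs. H3K4me3 also differed between populations at Tbx2, Tbx5, Tbx15, Tbx18 and Pitx1, and H3K27me3 at Tbx15. The LC-HFSC list marked only 0.505% of all genes with H3K9me3, against 47.9% for that of EA-HFSCs. The share of all genes with an unchanged combination was not counted.

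The 8 genes include 2 pairs of neighbours, so their values are not independent. Tbx2 and Tbx4 are 44473 bp apart with 1 coding gene, Gm11444, between them. H3K27me3 covered 50.4% of the interval in EA-HFSCs, 4.92% in LC-HFSCs, 77.7% in nEA-HFSCs and 61.5% in nLC-HFSCs. Tbx3 and Tbx5 are 149938 bp apart with no coding gene between them, and the corresponding shares were 64.2%, 10.2%, 50.3% and 38.6%. No single peak spanned both genes of a pair in any list.

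Other T-box and Pitx genes were divided. Of the 12 others, H3K27me3 was present at 7 in EA-HFSCs, 4 in LC-HFSCs, 7 in nEA-HFSCs and 7 in nLC-HFSCs, and H3K4me3 at 8, 6, 7 and 7. Those with H3K27me3 in all 4 populations included T, the mesoderm factor Brachyury, the neural gene Tbr1 and Tbx21 of T helper cells. In EA-HFSCs the widest H3K27me3 peak at a TSS measured 26557 bp at Tbr1 and 19162 bp at Eomes, a regulator of mesendoderm. Tbx6, of the presomitic mesoderm, and Mga, a broadly expressed Myc-network factor, had H3K4me3 without H3K27me3 in all 4 populations.

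The 19 genes of the limb and heart fields that work with the 8 genes showed H3K27me3 at 15 in EA-HFSCs, 5 in LC-HFSCs, 15 in nEA-HFSCs and 15 in nLC-HFSCs. H3K4me3 was found at 16, 11, 15 and 14 of them, and H3K9me3 at 19, 0, 0 and 10. The 5 that kept H3K27me3 in every population were the signals Fgf8 and Shh and the transcription factors Hand2, Msx1 and Meis2. The widest EA-HFSC peaks were those of Gata4 with 53539 bp, Hand2 with 52941 bp and En1 with 39587 bp. Gata4, like Tbx15, had no H3K27me3 peak at a TSS in LC-HFSCs, and neither had En1. Gli3, Meis1 and Bmp2 had H3K4me3 without H3K27me3 throughout.

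**Figure D4:**
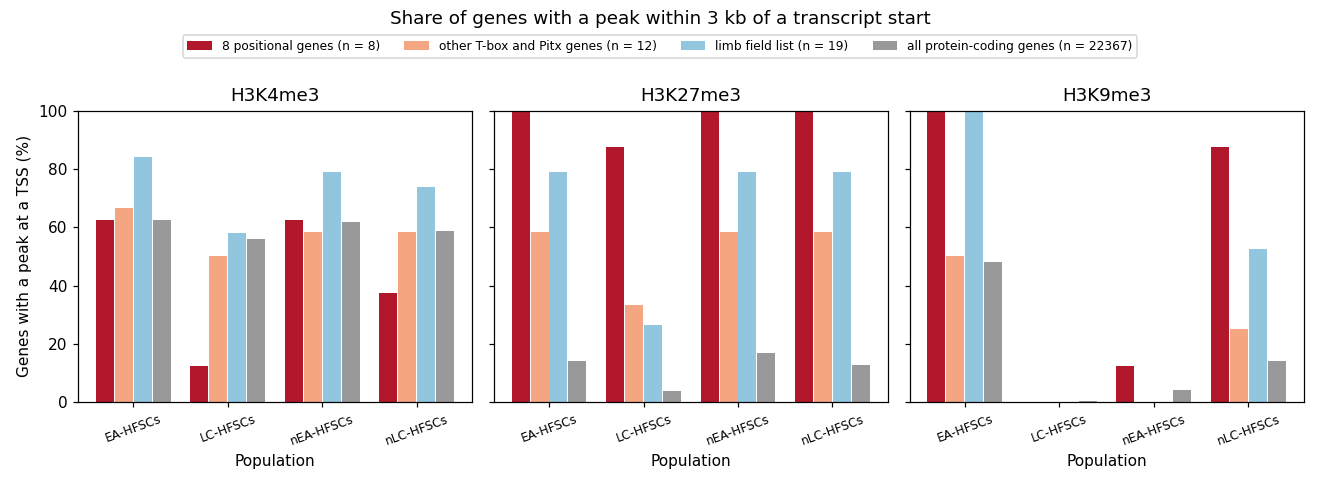
Percent of genes with a peak of each mark at a TSS in the 4 populations, for the 8 positional genes, the 12 other T-box and Pitx genes, the 19 genes of the limb field list and all 22367 protein-coding genes. Bars are shares of 1 list each. For H3K27me3 the bar of the 8 genes is the highest in every population (87.5% in LC-HFSCs), and for H3K4me3 in LC-HFSCs it is the lowest (12.5%).

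Genes with the most similar pattern were ranked by the mean absolute difference in percent of TSS windows covered over the 12 lists, as a description. Nkx2-1 was closest to Tbx18, with a difference of 0.998 percentage points. BC061194 was closest to Pitx1 (1.05), Cdx2 to Tbx5 (1.35), Foxa2 to Tbx20 (1.68), Gsc to Tbx3 (2.24), Adra1d to Tbx4 (2.44) and Hmx3 to Tbx2 (3.07). Nkx2-1, Cdx2, Foxa2, Gsc and Hmx3 are developmental transcription factors of other tissues. The second most similar genes were Mnx1 for Tbx18 (2.94), Prdm8 for Pitx1 (1.84), Hoxb13 for Tbx5 (1.36), Insl3 for Tbx20 (2.07), Rtn4rl2 for Tbx3 (2.82), Esx1 for Tbx4 (2.71) and Pcdh8 for Tbx2 (3.11). Tbx15 had no close match, since Sall4 (6.40) and Gata4 (7.04) were the nearest.

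The labels were checked against marker genes. All 7 bulge markers, among them Cd34, Sox9 and Lhx2, had H3K4me3 and no H3K27me3 in EA-HFSCs and LC-HFSCs. In nEA-HFSCs 4 of them and in nLC-HFSCs 5 carried H3K27me3, and Cd34, which was used for the sort, had no H3K4me3 there. The 4 basal keratinocyte markers had H3K4me3 without H3K27me3 in every population. Of 10 markers of dermal fibroblasts and dermal papilla, the cells in which Tbx15 and Tbx18 are known to act, 5 had H3K4me3 in EA-HFSCs, 3 in LC-HFSCs, 4 in nEA-HFSCs and 3 in nLC-HFSCs, and H3K27me3 was found at 6, 4, 6 and 6. Col1a1 had H3K4me3 in every population, 2713 bp wide in EA-HFSCs, 2134 bp in LC-HFSCs, 1970 bp in nEA-HFSCs and 1735 bp in nLC-HFSCs, and no H3K27me3 in either HFSC list. Pdgfra also had H3K4me3 in all 4 populations and Col1a2 in 3, whereas Col3a1 and Lum had no peak in any list. Unlike Col1a1, Pdgfra had H3K27me3 in EA-HFSCs (14333 bp), as well as in nEA-HFSCs (15354 bp) and nLC-HFSCs (11794 bp). Twist1, Twist2, Pdgfrb and Corin had H3K27me3 in all 4 populations. H3K4me3 was seen at 2 or 3 of 5 melanocyte markers, at 1 of 3 endothelial markers and at 0 of 4 leukocyte markers in each population. The part of other cells in the peaks described here was not tested.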

How the data were processed

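The deposited files are 12 peak lists in BED format, 1 for each of 4 populations and 3 marks. The authors trimmed reads with Trimmomatic 0.22, aligned them to mm9 with Bowtie2, pooled experiments, and called peaks with MACS against IgG of the same population. The 4 IgG samples were not analysed here. The deposited score is the −log10 of the MACS p-value multiplied by 10, and its lowest values correspond to p-value thresholds of 1e-05 (H3K4me3) and 0.0001 (the other marks). The lists hold no read numbers. The study describes deeper sequencing of LC-HFSCs than of EA-HFSCs, and it states that detection of H3K27me3 and H3K9me3 peaks was not saturated.

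Peaks were joined with GENCODE vM1 genes and the NCBIM37 sequence using Python 3.11.15, numpy 2.4.6 and matplotlib 3.10.9. A peak counted when at least 1 bp lay in the TSS windows or the gene body. The join was checked on simulated intervals with known overlaps, which it recovered. Positions are 1-based. Shares over all 22367 protein-coding genes serve as background, and no test was made.

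The 8 genes and the lists of related and marker genes were chosen with earlier results of these data known. From the related lists, genes were named if they carried H3K27me3 in all populations, carried H3K4me3 without H3K27me3 in all populations, or had 1 of the 3 widest H3K27me3 peaks in EA-HFSCs. A gene that meets this rule is not reported here by name. For each of the 8 genes the 2 most similar genes were named. Marker genes are named as examples. The alternatives were other windows, the gene start only, higher scores, an overlap of at least 200 bp, merged peaks, and equal numbers of top-scoring peaks.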

Additional observations from a re-analysis of the deposited data

Results flagged for a closer look

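Between early anagen and late catagen, the HFSC and non-HFSC lists moved in opposite directions at several of the 8 genes. This difference was not tested, since each value comes from 1 list. For H3K9me3, the percent of TSS windows covered fell from EA-HFSCs to LC-HFSCs and was higher in nLC-HFSCs than in nEA-HFSCs at 7 genes. The rise in the non-HFSCs was 33.0 percentage points at Tbx20, 28.0 at Tbx18, 13.8 at Tbx15, 12.9 at Tbx2, 8.60 at Tbx4, 8.29 at Pitx1 and 3.77 at Tbx3. The HFSC change at these genes lay between -66.3 percentage points at Tbx15 and -98.1 at Tbx20. With a score of at least 100, H3K9me3 in nLC-HFSCs remained at Tbx4, Tbx15 and Tbx18 alone, so the rises at Tbx2, Tbx3, Tbx20 and Pitx1 rest on weaker peaks, with a highest score of 75.54 at Tbx20. The share of all genes with an H3K9me3 peak at a TSS moved in these directions too. Of all genes, 47.9% were marked in the EA-HFSC list but only 0.505% in that of LC-HFSCs. The share in the non-HFSCs rose from 4.14% (nEA-HFSCs) to 14.1% (nLC-HFSCs). The base pairs in the whole non-HFSC H3K9me3 lists instead fell, from 24026387 in nEA-HFSCs to 11719548 in nLC-HFSCs. How many of all genes combined a fall with a rise was not counted, so the pattern cannot be called particular to the 8 genes.

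H3K4me3 did the same at 2 genes. At Tbx2 coverage rose by 10.2 percentage points in the non-HFSCs and changed by -42.0 in the HFSCs, and at Tbx5 the values were 2.73 and -4.55. The Tbx2 peak in nLC-HFSCs had a score of 54.04, and it was lost when a score of 100 was required. The Tbx5 peak only reached the edge of its TSS window, with 2.65% covered in nEA-HFSCs and 5.38% in nLC-HFSCs. It ran from -4045 to -2842 bp in nEA-HFSCs and from -3955 to -2678 bp in nLC-HFSCs, so this rise reflects a small difference in peak ends. With an overlap of at least 200 bp, Tbx5 no longer counted in nEA-HFSCs.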

How the results depend on the processing

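Of 135 values recomputed under the alternatives, 118 stayed within 1.5 times the value reported and 17 moved further. Some of the 118 could not move. The lowest H3K4me3 scores are 50.00 or 50.01, so a minimum of 50 removed none of those peaks. The H3K9me3 count of 0 in LC-HFSCs could not fall under stricter settings, and equal numbers of peaks left the LC-HFSC lists uncut. Summing all H3K27me3 peaks at a TSS, chosen after the data were seen, moved the median LC-HFSC width from 43.0% to 70.1% of that in EA-HFSCs. With the gene start in place of any transcript start, H3K4me3 in nEA-HFSCs was found at 3 genes, and H3K4me3 with H3K27me3 also at 3, since Tbx15 and Pitx1 have their peaks at later starts. With a score of at least 100, H3K27me3 in LC-HFSCs remained at 4 genes (Tbx2, Tbx4, Tbx20 and Pitx1), H3K9me3 at 0 in nEA-HFSCs and at 3 in nLC-HFSCs, and H3K4me3 with H3K27me3 at 0 in LC-HFSCs, while the median H3K4me3 width in nLC-HFSCs became 2553 bp. With a window of 1000 bp, H3K9me3 in nLC-HFSCs was found at 4 genes. Merging peaks less than 1 kb apart raised the median H3K9me3 width to 17810 bp in EA-HFSCs and 2593 bp in nEA-HFSCs. With equal numbers of top-scoring peaks per list of a mark, H3K4me3 was found at 3 genes in EA-HFSCs and 2 in nEA-HFSCs, H3K9me3 at 0 in nEA-HFSCs and 3 in nLC-HFSCs, and H3K4me3 with H3K27me3 at 2 in EA-HFSCs and 1 in nEA-HFSCs. The LC-HFSC list was the shortest for each mark and set these numbers (14718, 1909 and 1414 peaks for H3K4me3, H3K27me3 and H3K9me3). It was therefore uncut, and its counts could not change under this setting. H3K27me3 was found at 7 genes in EA-HFSCs and 7 in nEA-HFSCs, in both cases without Tbx3, and at 8 in nLC-HFSCs. H3K9me3 was found at 8 genes in EA-HFSCs. A score of at least 50, a window of 5000 bp and an overlap of at least 200 bp moved no count by over 1.5 times, although H3K27me3 in LC-HFSCs went from 7 to 6 genes, without Tbx18 at the score of 50 and without Tbx5 at the overlap of 200 bp. Windows of 5000 bp added Tbx2 and Tbx20 to the nEA-HFSC genes with H3K4me3 and thereby gave 7. There was 1 pooled list per population and mark, so no replicate could be left out, and because the lists carry no read counts and detection was not saturated for H3K27me3 and H3K9me3, a missing peak does not show that a mark is absent.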
